A study of Homo sapiens with 6 samples.

Results

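Glycolysis turns glucose into pyruvate and lactate, and the respiratory chain with ATP synthase makes ATP in mitochondria, and the transcripts of both were followed here in Jurkat cells, which derive from a human T-cell leukaemia. The rule for members uses gene symbols and no measured values, though the gene sets were proposed with results of these data known: 17 named glycolysis genes, and genes whose symbol starts with NDUF, UQCR, ATP5 or COX4 to COX8 or is SDHA to SDHD. Of 15246 probes on the array, 64 belonged to such genes, and all 34 genes present had values on at least 2 of the 3 arrays of each siRNA. They comprise 16 glycolysis genes (35 probes) and 18 respiratory chain genes, 5 of complex I, 1 of complex II, 3 of complex III, 3 of complex IV and 6 of complex V, the ATP synthase. LDHB was not analysed here.

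Each of 6 spotted arrays paired RNA of Jurkat cells given p65 siRNA or RPS3 siRNA, labelled with Cy5, with RNA of Jurkat cells given nonspecific siRNA, labelled with Cy3. Both cell samples of an array had been stimulated through CD3 and CD28 (anti-CD3/CD28, 1 ug) for the same time, and each siRNA was hybridised once per time point, at 1, 3 and 6 h. p65, encoded by RELA, is a subunit of the transcription factor NF-kB, and RPS3 is a protein of the small ribosomal subunit; the title of the series names both. Values are log2 ratios of siRNA over control, so 0 means equal signal; this direction is likely, from the dyes, and base 2 is assumed, since a natural log would fit the values too. A ratio says nothing of the transcript's level, and a higher ratio at 6 h can come from the siRNA cells or from the control cells. The labels do not say whether arrays came from separate cultures, or whether both arrays of a time used 1 control RNA, so p-values speak of the spread among these 6 arrays alone. For bulk RNA of this kind, fewer cells of a type and less RNA per cell cannot be told apart.

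In glycolysis, hexokinases, phosphofructokinases and aldolases prepare and split the sugar, and enzymes from GAPDH to pyruvate kinase recover ATP before lactate dehydrogenase regenerates NAD. Complexes I to IV pass electrons to oxygen and pump protons, and complex V uses the proton gradient; all 5 hold nuclear-encoded subunits, some catalytic and many small and accessory. T cells are known to raise glycolysis after receptor stimulation, and many glycolysis genes are textbook targets of hypoxia-inducible factor and MYC.

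As a check of the labels, the RPS3 transcript, seen by 1 probe, was at -2.50, -2.53 and -1.44 with RPS3 siRNA at 1, 3 and 6 h and at 0.11, 0.006 and 1.11 with p65 siRNA. RELA, the mean of 2 probes, lay between -0.59 and -0.41 on the p65 siRNA arrays and between -0.69 and -0.39 on the RPS3 siRNA arrays, so p65 siRNA did not separate from RPS3 siRNA by its target; 1 of the probes read -1.05 to -0.71 and -1.28 to -0.94, and the other -0.13 to 0.058 and -0.40 to 0.50. Between 12946 and 14423 probes had a value on an array, fewest on both 6 h arrays, and the SD of an array's probes ran from 0.26 to 0.51. Precision is limited by having 6 arrays, and how far each spot rose above background is not known. Log ratios cannot show whether a cell type's markers are present, so the cell line was not checked against them. The lowest correlation between any pair of arrays over all features was -0.24.

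The members as groups differed most between the 6 h arrays and the earlier ones. On the p65 siRNA arrays the median log2 ratio of the glycolysis genes was -0.0075 at 1 h, 0.036 at 3 h and 0.39 at 6 h, and that of the respiratory genes 0.20, 0.090 and -0.0085. On the RPS3 siRNA arrays the glycolysis median was -0.13, -0.085 and 0.18, and the respiratory median 0.055, -0.026 and -0.069. The median of all features stayed between 0.0003 and 0.011 on the 6 arrays. Glycolysis minus respiration was thus -0.21, -0.055 and 0.40 with p65 siRNA and -0.19, -0.059 and 0.25 with RPS3 siRNA: below 0 on the 4 earlier arrays and above 0 on both 6 h arrays. Averaged over time this gap was 0.045 ± 0.32 (SD, n = 3) with p65 siRNA and 0.0018 ± 0.22 with RPS3 siRNA, so the siRNAs differed by less than the spread between times. At 6 h, 14 of 16 glycolysis genes lay above 0 with p65 siRNA and 11 of 15 with RPS3 siRNA, against 9 and 8 of 18 respiratory genes. At 1 h it was 8 of 16 and 2 of 16 against 15 and 10 of 18. Of all features, 51.4% with p65 siRNA and 50.1% with RPS3 siRNA lay above 0 at 6 h, and 50.4% and 50.9% at 1 h. No p-value is given for these medians, because members of a list are not replicates and the members were proposed with results of these data known.

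**Figure D1:**
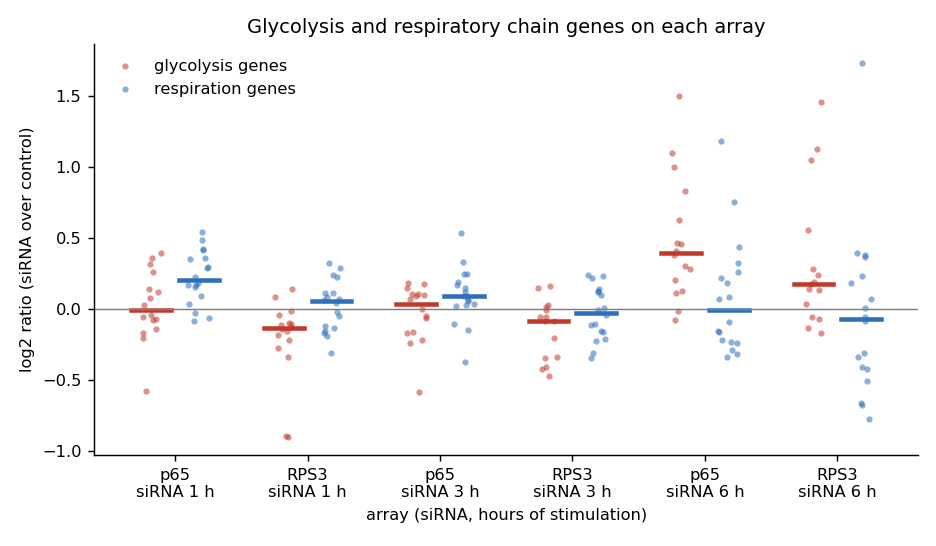
Log2 ratio (siRNA over control, vertical axis) of each glycolysis gene (red points) and each respiratory chain gene (blue points) on the 6 arrays (horizontal axis); thick bars are the medians. The red median lies below the blue one on the 4 arrays of 1 h and 3 h and above it on both 6 h arrays (0.39 against -0.0085 with p65 siRNA, 0.18 against -0.069 with RPS3 siRNA).

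The enzymes that trap and rearrange glucose did not move as a block. In the values that follow, the first 3 are the p65 siRNA arrays at 1, 3 and 6 h and the last 3 the RPS3 siRNA arrays at the same times. HK1, the widely expressed hexokinase, read -0.078, 0.10 and -0.011, then 0.087, 0.031 and 0.037, near 0 throughout. HK2, the inducible hexokinase, read 0.028, -0.16 and 0.47, then -0.15, -0.058 and 0.18, with both 6 h arrays above all earlier ones. GPI, which converts glucose 6-phosphate to fructose 6-phosphate, read -0.58, -0.59 and 0.30, then -0.90, a blank at 3 h, and 0.56. It was below 0 on every earlier array with a value and above 0 on both 6 h arrays. Phosphofructokinase, the committed step, is made of 3 subunit types that differed here. PFKP, the platelet type, read -0.043, 0.15 and 0.83, then -0.11, -0.085 and 0.14. PFKM, the muscle type, read 0.14, -0.24 and 0.11, then -0.14, 0.015 and 0.28. PFKL, the liver type, read -0.071, 0.091 and -0.075, then -0.017, -0.059 and -0.054. PFKP was thus high on 1 array, p65 siRNA at 6 h, while PFKM was lowest at 3 h with p65 siRNA and at 1 h with RPS3 siRNA, and PFKL stayed near 0. That PFKP value averages a probe at 1.25 and a probe at 0.41. The latter was blank with RPS3 siRNA at 6 h, so the PFKP value there rests on the former alone.

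The aldolases split fructose 1,6-bisphosphate. ALDOA, the main form outside liver and brain, read 0.12, 0.10 and 1.10, then -0.041, -0.005 and 1.12, with no overlap between 6 h and the earlier arrays. ALDOC, the brain-type form, read -0.053, -0.21 and 0.46, then -0.90, -0.47 and -0.13. At each time the RPS3 siRNA value was the lower one, and within each siRNA its highest value was at 6 h. TPI1, which interconverts the triose phosphates, read 0.40, 0.17 and 0.13, then -0.12, 0.16 and -0.17, and was the glycolysis gene with the lowest 6 h values relative to earlier ones.

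In the steps that pay back ATP, GAPDH and ENO1 stood out at 6 h. GAPDH, which oxidises glyceraldehyde 3-phosphate, read 0.26, -0.046 and 1.00, then -0.098, 0.15 and 1.05. PGK1, which makes the first ATP of the pathway, read 0.082, 0.002 and 0.63, then -0.18, -0.42 and 0.24. Both 6 h arrays were above all earlier arrays for each of these genes, by a wide margin for GAPDH and a narrow one for PGK1. ENO1, the ubiquitous enolase, read -0.17, -0.064 and 1.50, then -0.27, -0.20 and 1.46, the largest 6 h difference among the 34 genes. Its neuronal relative ENO2 read -0.20, 0.069 and 0.28, then -0.12, -0.34 and 0.14, with the 6 h arrays again on top but by far less. PKM, pyruvate kinase, read -0.14, -0.17 and 0.20, then -0.34, -0.41 and a blank at 6 h. PGAM1, phosphoglycerate mutase 1, read 0.36, 0.097 and 0.38, then -0.22, -0.34 and -0.068. As means of 7 probes, all of its p65 siRNA values were above 0 and all of its RPS3 siRNA values below. At 6 h its single probes ran from -0.19 to 0.82 with p65 siRNA and from -0.80 to 0.44 with RPS3 siRNA. LDHA, the lactate dehydrogenase subunit that favours lactate production, read 0.32, 0.18 and 0.41, then 0.14, -0.086 and 0.19, so that it was above 0 on 5 of 6 arrays.

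**Figure D2:**
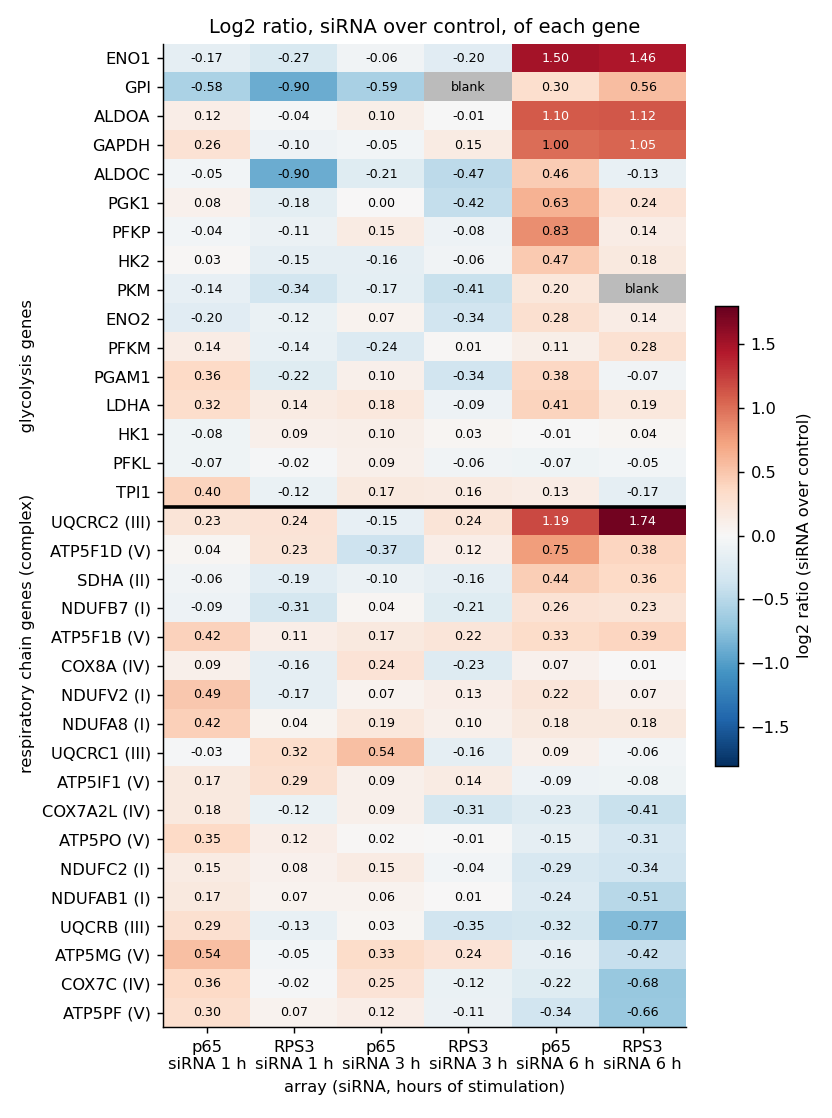
Log2 ratio (siRNA over control, colour scale and printed value) of the 34 genes (rows; glycolysis above the black line, respiratory chain below it with the complex in brackets) on the 6 arrays (columns, ordered by time). Both 6 h columns are red for ENO1, ALDOA, GAPDH and UQCRC2 (1.00 to 1.74) and blue for ATP5PF, COX7C, ATP5MG and UQCRB (-0.16 to -0.77); grey marks a blank value.

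Several of these genes were represented by more than 1 probe, and the probes did not always go together. For ENO1, 3 of the 4 probes differed by 1.60 to 2.35 between the mean of the 6 h arrays and the mean of the earlier arrays, and the other by 0.43. The 7 PGAM1 probes fell to both sides, from -0.40 to 0.58: 3 were lower at 6 h (-0.19, -0.18 and -0.40), and 4 were higher (0.36, 0.54, 0.55 and 0.58). All 7 nevertheless had a lower mean on the RPS3 siRNA arrays than on the p65 siRNA arrays. The 2 LDHA probes went apart, with 0.58 for one and -0.26 for the other, and HK2 gave 0.75 and 0.069. Probes of PGK1 (0.53 and 0.60), GAPDH (0.86 and 1.06), COX7C (-0.60 to -0.51) and ATP5PF (-0.66 to -0.56) were close to each other. Probes of TPI1 gave 0.070 and -0.42, and those of PFKL -0.21 and 0.11. Those of ALDOC (0.35 and 0.79), SDHA (0.35 and 0.71) and NDUFB7 (0.20 and 0.56) shared a sign but differed in size. The gene means of ENO1, PGAM1, LDHA, HK2, TPI1, PFKL, ALDOC, SDHA and NDUFB7 therefore average unlike probes. Which transcripts each probe detects was not tested.

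**Figure D3:**
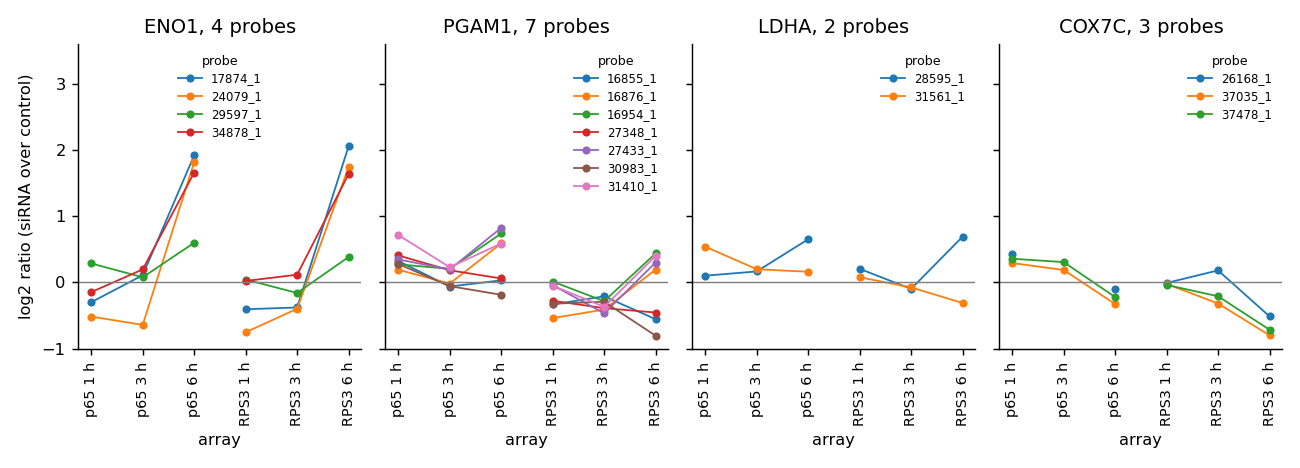
Log2 ratio (siRNA over control, vertical axis) of every probe of ENO1, PGAM1, LDHA and COX7C on the 6 arrays (horizontal axis; lines join the 3 times of a siRNA). The 3 steep ENO1 probes lie between 1.64 and 2.06 at 6 h and the fourth at 0.60 and 0.39; PGAM1 and LDHA probes separate at 6 h, and the COX7C probes stay together (1 of them is blank at 3 h with p65 siRNA, which breaks its line).

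Among the electron carriers, subunits of the same complex differed in sign. In complex I, NDUFC2 and NDUFB7 are accessory subunits of the membrane arm, and NDUFAB1 is the mitochondrial acyl carrier protein. NDUFC2 read 0.15, 0.15 and -0.29, then 0.083, -0.044 and -0.34. NDUFAB1 read 0.17, 0.060 and -0.24, then 0.070, 0.0075 and -0.51. NDUFB7 read -0.085, 0.038 and 0.26, then -0.31, -0.21 and 0.24. The 6 h arrays thus lay below all earlier arrays for the first pair and above them for NDUFB7. With RPS3 siRNA at 6 h the NDUFB7 value rests on 1 of its 2 probes. The probe that was blank there read 0.37 at 3 h and 0.21 at 6 h with p65 siRNA. NDUFV2, an iron-sulfur subunit, read 0.49, 0.066 and 0.22, then -0.17, 0.13 and 0.073, and the accessory subunit NDUFA8 read 0.43, 0.19 and 0.18, then 0.043, 0.098 and 0.18. SDHA, the flavoprotein of complex II, which is also an enzyme of the citrate cycle, read -0.064, -0.10 and 0.44, then -0.19, -0.16 and 0.36, with every earlier array below 0 and both 6 h arrays above.

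Complex III showed the widest split. UQCRC2, a core subunit, read 0.23, -0.15 and 1.19, then 0.24, 0.24 and 1.74, the highest single value of any respiratory gene. UQCRB, a small subunit, read 0.29, 0.030 and -0.32, then -0.13, -0.35 and -0.77, lowest at 6 h with each siRNA and lower with RPS3 siRNA at each time. UQCRC1, the other core subunit, read -0.027, 0.54 and 0.085, then 0.32, -0.16 and -0.055, so it did not follow UQCRC2. In complex IV, cytochrome c oxidase, COX7C read 0.36, 0.25 and -0.22, then -0.023, -0.12 and -0.68. COX7A2L, which takes part in assembling complexes into supercomplexes, read 0.18, 0.090 and -0.23, then -0.12, -0.31 and -0.41. COX8A read 0.090, 0.25 and 0.074, then -0.16, -0.23 and 0.009. COX7C was therefore lower at 6 h than on any earlier array, COX7A2L was lowest at 6 h within each siRNA, and COX8A separated the siRNAs and not the times.

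The 6 genes of complex V differed in sign as well. In the catalytic head and central stalk, ATP5F1B, the beta subunit, read 0.42, 0.17 and 0.33, then 0.11, 0.22 and 0.39, above 0 on all 6 arrays. ATP5F1D, the delta subunit, read 0.035, -0.37 and 0.75, then 0.23, 0.12 and 0.38. Both 6 h values of ATP5F1D exceeded all earlier ones, although 1 of the earlier values, at 3 h with p65 siRNA, lay far below the others. In the peripheral stalk, ATP5PF read 0.30, 0.12 and -0.34, then 0.067, -0.11 and -0.66, and ATP5PO read 0.35, 0.019 and -0.15, then 0.12, -0.008 and -0.31. ATP5MG, subunit g of the membrane part, read 0.54, 0.33 and -0.16, then -0.051, 0.24 and -0.42. ATP5IF1, which inhibits the enzyme and is no subunit of it, read 0.17, 0.091 and -0.091, then 0.29, 0.14 and -0.083. For each of these last 4 genes both 6 h arrays were below all 4 earlier arrays.

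The dependence on time was tested first as a slope per hour with the siRNA as a term of the limma fit. No feature had a Benjamini-Hochberg adjusted p under 0.05 (0% of 8797; the lowest was 0.189), and so none of the 34 members did. At an unadjusted p under 0.05, 9 members had a positive slope and 7 a negative one, where 12.1% and 7% of all features did (19.1% in all). The 9 were 6 glycolysis and 3 respiratory genes, and all 7 were respiratory. The steepest members were ENO1 (0.36 per hour, SE 0.062, unadjusted p = 0.00113) and UQCRC2 (0.26), and the most negative were ATP5PF (-0.14, SE 0.031, unadjusted p = 0.00417) and COX7C (-0.13). The median slope was 0.080 per hour for glycolysis and -0.046 for respiration, against -0.00089 for all features. When the p65 siRNA 1 h array was left out 488 features passed, with ENO1, GPI, ALDOA, GAPDH and UQCRC2 among them. Leaving out any other array brought no slope call among the members.

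A second contrast set both 6 h arrays against the 4 earlier ones with the siRNA as a term; it was chosen after seeing the data. In limma, 398 of 8608 features passed at an adjusted p under 0.05 (4.62%), 381 of them higher at 6 h (4.43%) and 17 lower (0.197%). Of the 34 members 5 passed, all higher: 4 glycolysis genes and UQCRC2. ALDOA, GPI and UQCRC2 each rest on 1 probe, so no other probe of the same gene could be compared. ENO1 differed by 1.65 (SE 0.12, adjusted p = 0.0102) and at 6 h had a mean of 1.48, which is 2.78-fold siRNA over control. UQCRC2 differed by 1.32 (SE 0.17, adjusted p = 0.019) with a 6 h mean of 2.75-fold over control, and GPI, fitted on 5 arrays, by 1.13 (SE 0.19, adjusted p = 0.0408). For ALDOA the difference was 1.07 (SE 0.12, adjusted p = 0.0159) and for GAPDH 0.96 (SE 0.16, adjusted p = 0.0316). These are enzymes of both the preparatory and the ATP-yielding steps, and 12 of 16 glycolysis genes did not pass.

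In this fit no member passed in the lower direction. The lowest were ATP5PF at -0.60 (SE 0.13, adjusted p = 0.0639), COX7C at -0.56 (SE 0.12, adjusted p = 0.0621), ATP5MG at -0.56, UQCRB at -0.51, NDUFAB1 at -0.45 and NDUFC2 at -0.40, all 6 with an unadjusted p under 0.05. Fits on fewer features did call lower members: ATP5PF (adjusted p = 0.037) and COX7C (0.0365) among features with values on all 6 arrays, and ATP5PF (0.033), COX7C (0.0344) and ATP5MG (0.0491) with complete probes only. PGK1 and SDHA then passed as higher in both, and NDUFB7 in the second. In the main fit of this contrast at an unadjusted p under 0.05, 13 members were higher and 6 lower, against 16.5% and 10.2% of all features (26.7% in all). Counted by values alone, both 6 h arrays were above all earlier arrays for 6 of 14 glycolysis genes (ALDOA, ENO1, ENO2, GAPDH, HK2 and PGK1) and 4 of 18 respiratory genes (ATP5F1D, NDUFB7, SDHA and UQCRC2), where 22.4% of all features were. They were below all earlier arrays for 0 of 14 glycolysis genes and 7 of 18 respiratory genes (ATP5IF1, ATP5MG, ATP5PF, ATP5PO, COX7C, NDUFAB1 and NDUFC2), where 19.1% of all features were. These counts take the 32 members with values on all 6 arrays, which leaves out GPI and PKM. The median difference was 0.39 for glycolysis, -0.21 for respiration and -0.015 for all features.

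**Figure D4:**
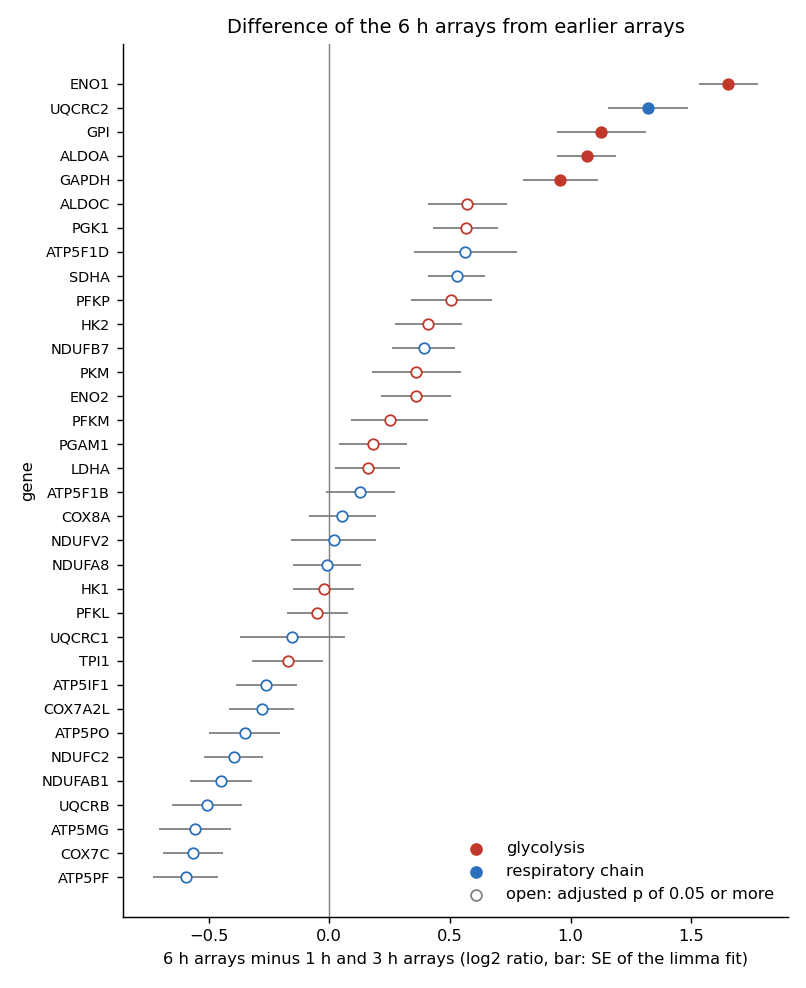
Difference of the 6 h arrays from the 1 h and 3 h arrays (log2 ratio, horizontal axis) for each gene (vertical axis), with the SE of the limma fit as a bar; filled points have an adjusted p under 0.05. Glycolysis genes (red) lie mostly towards the top and respiratory genes (blue) the lower end, with UQCRC2, ATP5F1D, SDHA and NDUFB7 as the respiratory genes furthest above 0.

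The 5 calls needed the 6 h array of each siRNA. When that of p65 siRNA was left out 3 features and 0 members passed, and when that of RPS3 siRNA was left out 5 features and 0 members passed, although ENO1 still differed by 1.69 and 1.61 and ALDOA by 1.15 and 0.99; GPI could not be fitted in the second case. GPI also missed the threshold without the p65 siRNA 3 h array (adjusted p = 0.053), and GAPDH missed it with quantile normalization (0.0905) and with arrays scaled to a common spread (0.0592). The labels give each array a database number, consecutive for p65 siRNA at 1 h and RPS3 siRNA at 3 h and again for the other 4 arrays, and do not say what these blocks stand for. Within the block of 4 the 6 h difference was 1.65 for ENO1, 1.41 for UQCRC2, 1.17 for GPI, 1.10 for GAPDH and 1.08 for ALDOA.

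Other features moved with the 6 h arrays too. The 16 T cell markers had array medians of 0.26 and 0.49 at 6 h, where the earlier arrays had -0.17 to 0.078. In the same contrast 12 of the 16 lay above 0 and 4 below. Those that passed were 4 higher (CD247, CD5, LCK and ZAP70) and 0 lower, against 4.43% and 0.197% of all features. At an unadjusted p under 0.05, 9 were higher and 1 lower. The 21 markers of other lineages had medians of 0.035 and -0.018 at 6 h and -0.010 to 0.36 earlier, and 0 passed. The 27 cytosolic ribosomal proteins without RPS3 had medians of 0.33, 0.17 and -0.028 with p65 siRNA and 0.0066, 0.004 and -0.29 with RPS3 siRNA; 3 passed as lower (RPS29, RPS20 and RPL22L1) and 1 as higher (RPL8). The RPS3 probe itself differed by 1.07 at 6 h (adjusted p = 0.0157). The part of these in the members' values was not tested.

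Promoters were read for the members because the glycolysis and respiratory genes separated at 6 h. Of the 34 genes 30 matched RefSeq promoters of 250 bases before to 50 bases after the start, build GRCh38.p14. The letters ACGTG, the core of the hypoxia response element, were searched on both strands along with 5 other motifs. They lay in 8 of 16 glycolysis promoters (50.0%; ALDOA, ALDOC, ENO2, GAPDH, GPI, HK2, LDHA and PGK1) and 1 of 14 respiratory promoters (7.14%; UQCRC2), against 21.4% of all 35116 promoters. Of the 5 members that passed at 6 h, ALDOA, GAPDH, GPI and UQCRC2 held it and ENO1 did not; of the 6 promoters read among members with both 6 h arrays below the earlier ones, 0 held it. LDHA held it at 3 places once overlapping matches of both strands were joined, and its 6 h difference was 0.16 (adjusted p = 0.496). The following stretches upstream of the start show the matches in GAPDH and UQCRC2, which passed at 6 h, and in PGK1 and LDHA, which hold several and did not pass, beside 3 genes without a match (the single matches of ALDOA and GPI are not shown); capitals mark ACGTG on either strand, joined where they overlap, and the match nearest the start lies at -81 in GAPDH and at -42 in UQCRC2.
GAPDH, chr12:6535144-6535263, plus strand: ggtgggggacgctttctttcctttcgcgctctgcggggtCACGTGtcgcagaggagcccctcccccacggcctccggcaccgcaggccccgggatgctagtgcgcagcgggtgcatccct
PGK1, chrX:78103998-78104247, plus strand: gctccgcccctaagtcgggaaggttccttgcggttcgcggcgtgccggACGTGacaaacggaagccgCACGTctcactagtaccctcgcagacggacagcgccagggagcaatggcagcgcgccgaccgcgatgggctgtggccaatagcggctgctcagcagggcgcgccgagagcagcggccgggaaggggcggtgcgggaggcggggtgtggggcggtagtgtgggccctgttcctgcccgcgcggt
LDHA, chr11:18394313-18394562, plus strand: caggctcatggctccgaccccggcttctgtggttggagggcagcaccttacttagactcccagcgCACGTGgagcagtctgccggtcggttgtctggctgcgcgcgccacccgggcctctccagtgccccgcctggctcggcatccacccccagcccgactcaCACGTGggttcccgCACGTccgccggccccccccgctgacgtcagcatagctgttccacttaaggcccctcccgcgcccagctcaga
UQCRC2, chr16:21953241-21953360, plus strand: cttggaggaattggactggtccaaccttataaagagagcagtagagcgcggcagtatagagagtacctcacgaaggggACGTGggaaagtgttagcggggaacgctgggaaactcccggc
ENO1, chr1:8878687-8878806, minus strand: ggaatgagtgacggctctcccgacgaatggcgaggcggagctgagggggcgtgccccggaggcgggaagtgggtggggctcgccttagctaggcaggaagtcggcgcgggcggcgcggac
COX7C, chr5:86617821-86617940, plus strand: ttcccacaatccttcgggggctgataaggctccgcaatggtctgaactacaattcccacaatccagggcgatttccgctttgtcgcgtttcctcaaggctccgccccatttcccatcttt
ATP5PF, chr21:25735055-25735174, minus strand: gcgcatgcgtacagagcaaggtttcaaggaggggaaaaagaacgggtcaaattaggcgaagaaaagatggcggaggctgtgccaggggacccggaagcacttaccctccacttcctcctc

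In GAPDH and LDHA a match on each strand overlaps to give the palindrome CACGTG, the E-box that MYC and its relatives also bind, which with ALDOC makes 3 of 16 or 18.8% of the glycolysis promoters, 0% of the respiratory ones and 7.26% of all. CCGGAAG, the ETS motif, stood in 4 of 14 respiratory promoters (28.6%), 12.5% of glycolysis promoters and 10.3% of all. TGCGCA, part of the NRF1 site, stood in 28.6%, 12.5% and 8.24%. CCAAT was found in 18.8% of glycolysis, 35.7% of respiratory and 34.6% of all promoters. The loose kappa B pattern GGGNNNNNCC was found in 81.2%, 78.6% and 58.7%. Base composition differed as well, with a median GC content of 69.8% for glycolysis, 58.8% for respiration and 58.7% for all promoters, and its part in the motif counts was not tested. A match is letters in a window and not a bound site.

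The siRNAs were then compared with control over the 3 times, a test that leaves out the control's own spread. On the p65 siRNA arrays no feature passed (0% of 8797; lowest limma adjusted p = 0.919). At an unadjusted p under 0.05, 4 members were higher, LDHA (0.30 ± 0.11, SD, n = 3), PGAM1 (0.28 ± 0.16), ATP5F1B (0.30 ± 0.13) and NDUFA8 (0.27 ± 0.14), and 0 lower, against 2.65% and 2.41% of all features (5.06% in all). The medians were 0.17 for glycolysis, 0.11 for respiration and 0.024 for all features, and without the 6 h array the glycolysis median was 0.011. Values above 0 on all 3 arrays were seen for 5 of 16 glycolysis genes (ALDOA, LDHA, PGAM1, PGK1 and TPI1) and 4 of 18 respiratory genes (ATP5F1B, COX8A, NDUFA8 and NDUFV2), where 13.4% of all features had them. None of the 34 lay below 0 on all 3, where 9.39% of all features did.

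On the RPS3 siRNA arrays no feature passed either (0%; lowest adjusted p = 0.184). Members with an unadjusted p under 0.05 were all lower: ALDOC (-0.50 ± 0.38), PKM (-0.37 ± 0.051, n = 2) and UQCRB (-0.42 ± 0.33), 3 of 34, where 3.98% of all features were lower and 3.73% higher (7.71% in all). The medians were -0.028 for glycolysis, -0.072 for respiration and 0.017 for all features; without the 6 h array the respiratory median was 0.029. ALDOC, PFKL, PGAM1, COX7A2L, COX7C and UQCRB lay below 0 on all 3 arrays, 6 of 32 genes (15.0% of all features), and HK1, ATP5F1B, ATP5F1D, NDUFA8 and UQCRC2 above 0 on all 3, 5 of 32 (16.2% of all features).

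The difference between the siRNAs, in which an effect of the dyes common to all arrays cancels, was small for most members. No feature passed (0%; lowest limma adjusted p = 0.971). PGAM1 was the member with an unadjusted p under 0.05: RPS3 siRNA minus p65 siRNA was -0.58, -0.44 and -0.45 at 1, 3 and 6 h, a fitted difference of -0.49 (SE 0.17, unadjusted p = 0.0193, adjusted p = 1.00). That is 1 of 34 lower and 0 higher, where 1.25% and 1.1% of all features were (2.35% in all). ALDOC differed by -0.84, -0.25 and -0.59 (unadjusted p = 0.0632), UQCRB by -0.42, -0.38 and -0.46 (0.114), COX7C by -0.38, -0.36 and -0.46 (0.137) and PGK1 by -0.26, -0.43 and -0.39 (0.184). Each of these 4 was lower with RPS3 siRNA at all 3 times, by an amount that varied less between times for UQCRB and COX7C than for ALDOC. Many other members were also lower at all 3 times, ENO1, LDHA, COX8A and COX7A2L among them, and the share of all features was not counted. In limma, COX8A (unadjusted p = 0.132), PKM (0.14), COX7A2L (0.143) and TPI1 (0.149) also had a lower p than PGK1. With the time point as a block in the limma fit, the unadjusted p-values of ALDOC, UQCRB, COX7C and PGK1 were 0.0187, 0.0219, 0.026 and 0.0407, and that of PGAM1 was 0.0128. The adjusted p was 0.839 for each. In that fit 5 members were lower and 0 higher at an unadjusted p under 0.05, where 5.49% of all features were called in all. UQCRC2 was the highest, at 0.017, 0.39 and 0.55. At 1 h and at 3 h the arrays compared come from different blocks of database numbers, and only at 6 h do they share a block. Within each siRNA the 1 h and 3 h arrays also come from different blocks. The part of the blocks in these differences was not tested.

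Fitted differences were below 0 for 13 of 16 glycolysis genes and 15 of 18 respiratory genes, with medians of -0.14 and -0.16. Of all features, 4454 of 8797 lay below 0, and their median was -0.0028. The glycolysis median moved to -0.33 without the RPS3 siRNA 6 h array and to -0.045 without the RPS3 siRNA 3 h array. Within the block of 2 database numbers (p65 siRNA at 1 h, RPS3 siRNA at 3 h) the medians were -0.13 and -0.25, and within the block of 4 they were -0.13 and -0.15. The cytosolic ribosomal proteins had a median difference of -0.29, with 21 of 27 below 0, and their part in the members' values was not tested. All RPS3 siRNA arrays were below all p65 siRNA arrays for PGAM1, COX8A and NDUFA8, 3 of 32 genes (4.82% of all features), and above them for 0 of 32 (3.11%).

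**Figure D5:**
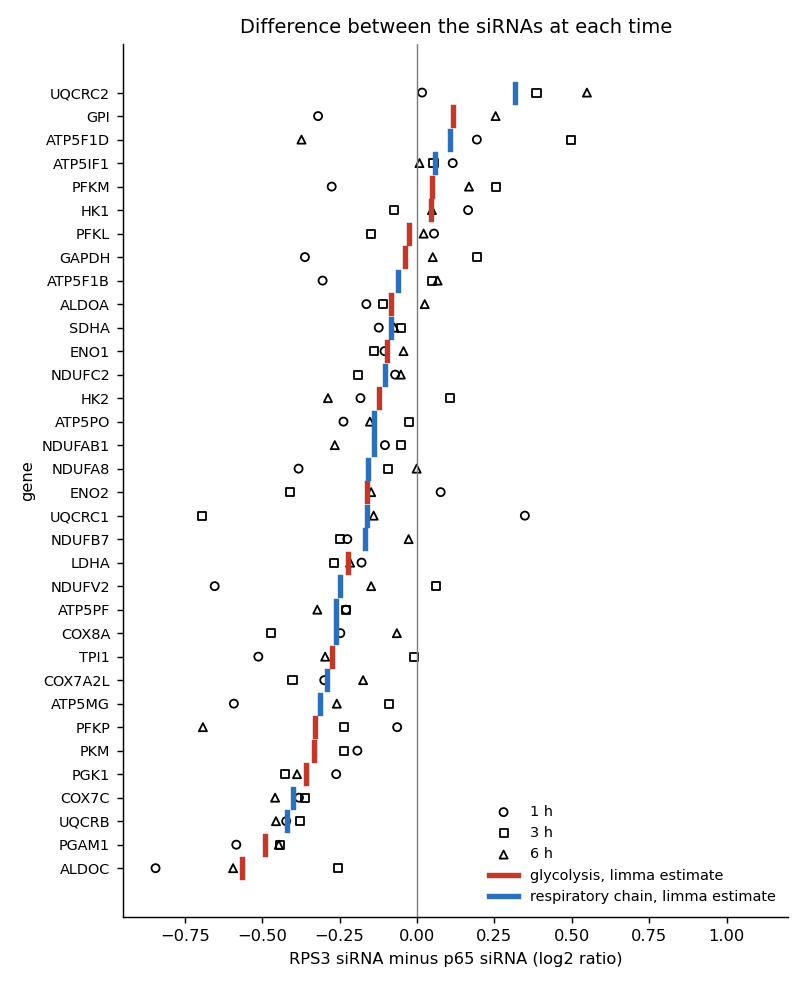
Difference between the siRNAs (RPS3 siRNA minus p65 siRNA, log2 ratio, horizontal axis) for each gene (vertical axis) at 1 h (circle), 3 h (square) and 6 h (triangle), with the limma estimate over all arrays as a coloured tick. Most ticks lie left of 0 (28 of 34); ALDOC and PGAM1 are lowest (-0.56 and -0.49) and UQCRC2 highest (0.32). The 1 h and 3 h differences are between arrays of different blocks of database numbers.

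Genes around the members were read from lists that cover neighbouring steps. Among 4 other glycolysis enzymes and isoforms, PGAM2, the muscle form of phosphoglycerate mutase, passed as higher at 6 h: it read -0.22, -0.11 and 0.62, then -0.36, -0.27 and 0.42 (difference 0.76, adjusted p = 0.0317). Of 16 genes of glucose uptake, lactate export and the hypoxia response 1 passed. This was ARNT, the partner of HIF1A, at -0.35, -0.44 and 1.67, then 0.17, -0.014 and a blank at 6 h, so its difference of 2.07 (adjusted p = 0.0161) rests on 1 late array. The median difference of that list was -0.067, and HIF1A itself read 0.058, 0.096 and -0.073, then 0.12, 0.056 and -0.27. SLC2A1, the main glucose transporter of T cells, read -0.049, 0.059 and 0.72, then -0.48, -0.031 and 0.095, without passing. Of 11 other respiratory chain, assembly and regulatory genes 1 passed: COX15, the heme A synthase of complex IV assembly, read 0.25, 0.22 and 0.92, then -0.14, -0.017 and 0.95 (difference 0.85, adjusted p = 0.0317). Of 11 mitochondrial ribosomal proteins MRPL28 passed, at 0.98 (adjusted p = 0.0262), and the median of that list was 0.041. No feature passed in the comparisons of the siRNAs with control or with each other (0% of 8797), so no member of these lists did.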

How the data were processed

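Each array compared siRNA-treated with control Jurkat cells. The authors deposited 1 log2 ratio per probe and array, here read as base 2; the log base, image analysis, background correction, normalization and the rule behind blank cells are not given in the sources used here. Medians of the deposited arrays lay between -0.019 and 0.007, and 5.40% to 15.1% of an array's cells were blank. Dyes and groups are per the labels.

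Each array's median was subtracted, and probes of 1 platform symbol (10169 probes) were averaged per array; probes with several symbols (4) or none (5073) stayed single. Features with values on at least 2 of 3 arrays of each siRNA were tested (8797). Group means, their difference and a slope per hour came from limma 3.58.1 under R 4.3.3 (lmFit, then eBayes, Benjamini-Hochberg over all features, threshold 0.05). The scripts were tested on simulated data. The members and gene lists were chosen with earlier results of these data known. Genes named are members that passed, the 4 highest and 4 lowest of each list per contrast (2 for the slope), isoform groups and genes whose probe means differed by more than 0.5; from other lists, those that passed. NDUFB7, UQCRC1, COX8A and ATP5PO, SLC2A1 and HIF1A were added after their values were seen, as were LDHA and COX7C in the probe figure. IDH3B, IDH3A and CS are also named, though they did not pass. For lists without a gene that passed, counts are given. The time point was not used as a block in the main fits. Deviations of same-time arrays correlated at 0.010 at 1 h, 0.096 at 3 h and 0.76 at 6 h. Across times, p65 siRNA at 1 h with RPS3 siRNA at 3 h gave 0.57, and p65 siRNA at 3 h with RPS3 siRNA at 1 h gave 0.54. Both of those pairs lie within the same block of consecutive database numbers, as do the 6 h arrays. The same-time pairs of 1 h and of 3 h do not. The 6 h contrast does not use the order of the 1 h and 3 h arrays.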

Additional observations from a re-analysis of the deposited data

Results flagged for a closer look

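Differences between the 6 h arrays and the earlier arrays drew attention to 8 members. Those of ENO1 (1.65), UQCRC2 (1.32), GPI (1.13), ALDOA (1.07) and GAPDH (0.96) passed in limma. Those of SDHA (0.53), NDUFAB1 (-0.45) and ATP5IF1 (-0.26) did not pass, but in each gene the 6 h arrays all lay on one side of 0 and the earlier arrays all on the other. PGAM1 was singled out for the siRNAs: as means of 7 probes, its p65 siRNA values were all above 0 and its RPS3 siRNA values all below. The difference of -0.49 did not pass, and at 6 h its single probes lay on both sides of 0 with each siRNA. Outside the members, ARNT (2.07), PDK1 (1.16), COX15 (0.85), PGAM2 (0.76) and IDH3G (0.66) passed as higher at 6 h.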

How the results depend on the processing

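In 2336 values of single members recomputed under the alternatives, 12 calls were lost, 15 were gained and 139 values that had not passed took the other sign; why was not tested. For the 6 h difference, 746 of 7267 features and 8 members passed among features with values on all 6 arrays. With complete probes only, 838 features and 10 members passed. In both of these fits more features passed in all than the 398 of 8608 in the main fit. Fitted as single probes, 717 features passed, 9 of them probes of members, and 35 probes of members had an unadjusted p under 0.05. A gene can hold several of these probes. The gap between the medians was 0.75 within the block of 4 consecutive database numbers. With 1 array left out 3 to 754 features (259 and 232 without the RPS3 siRNA 1 h or 3 h array) and 0 to 5 members passed, 8 to 20 members had an unadjusted p under 0.05, and the gap was 0.50 to 0.72. For the slope, 27 single probes of members had an unadjusted p under 0.05. The respiratory median was -0.070 over single probes, -0.059 with quantile normalization and -0.071 with the block of database numbers as a covariate. With 1 array left out the slope gave 0 to 488 features, 0 to 5 members passing, 3 to 18 unadjusted, a glycolysis median of 0.052 to 0.10 (0.095 without the p65 siRNA 1 h array), a respiratory median of -0.070 to -0.037 and a gap of 0.089 to 0.16. For p65 siRNA against control, 7 single probes of members had an unadjusted p under 0.05. Unadjusted members numbered 1 without both 6 h arrays and 0 to 4 with 1 array left out, with a gap of -0.15 to 0.17. For RPS3 siRNA against control, 1 feature passed with quantile normalization and 2 without both 6 h arrays, where the respiratory median was 0.029. As single probes, 6 probes of members had an unadjusted p under 0.05. Leaving out 1 array gave 1 to 4 unadjusted members, a respiratory median of -0.099 to 0.029 and a gap of -0.12 to 0.13. For the difference between the siRNAs, 3 single probes of members had an unadjusted p under 0.05. Unadjusted members of this difference numbered 2 with quantile normalization, 2 with arrays scaled to a common spread and 2 without both 6 h arrays. Its glycolysis median was -0.20 with scaled arrays and -0.22 with single probes, and within the block of 2 numbers its respiratory median was -0.25 and its gap 0.12. With 1 array left out it gave 0 to 2 unadjusted members, a glycolysis median of -0.33 to -0.045 (-0.23 and -0.27 without the p65 siRNA 1 h or 3 h array, -0.048 without its 6 h array), a respiratory median of -0.25 to -0.13 (-0.21 without the RPS3 siRNA 1 h array) and a gap of -0.17 to 0.20 (-0.091 without the p65 siRNA 3 h array). Same-time arrays deviated together at 6 h but not at 1 h or 3 h. With the time point as a replicate block, unadjusted members numbered 10 for p65 siRNA (8.73% of features), 9 for RPS3 siRNA (13.1%) and 5 for the difference (5.49%). The 1 feature that passed for RPS3 siRNA and the 1 for the difference was the RPS3 gene. Not every array correlated best with the array of its own time. With 3 arrays per siRNA and blank cells most frequent at 6 h, differences of the members' size between the siRNAs could not be told from the spread.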

Other observations

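The citrate cycle, which feeds electrons to the respiratory chain, was covered by 18 genes with pyruvate dehydrogenase, of which 2 passed as higher at 6 h in limma and 0 as lower. PDK1, the kinase that turns pyruvate dehydrogenase off, read -0.31, -0.78 and 0.65 with p65 siRNA at 1, 3 and 6 h and -0.69, -0.17 and 0.69 with RPS3 siRNA, a 6 h difference of 1.16 (adjusted p = 0.039). IDH3G, a subunit of NAD-dependent isocitrate dehydrogenase, read -0.18, -0.15 and 0.43, then -0.15, 0.020 and 0.66 (difference 0.66, adjusted p = 0.0466). The other subunits, IDH3B and IDH3A, differed by 0.73 (adjusted p = 0.0563) and 0.45 (adjusted p = 0.208), and citrate synthase, CS, by 0.90 (adjusted p = 0.153). The median of the list was 0.14, with 11 genes above 0 and 7 below. At an unadjusted p under 0.05 in the same fit, 5 were higher and 3 lower, where 16.5% and 10.2% of all features were. The genes named here all lie on the higher side. The 5 genes of the pentose phosphate pathway had a median of 0.13, and 0 passed.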
